A study of Mus musculus with 9 samples.

Results

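The *Dlk1*-*Meg3*-*Dio3* domain is a cluster of imprinted genes on mouse chromosome 12. It was taken as the stretch from 20 kb upstream of *Dlk1* to 20 kb downstream of *Dio3*, which lies at chr12:110671033-111539307 in mm9 and spans 868 kb. Its members are 6 of the 23653 protein-coding and lincRNA genes of the annotation, namely the protein-coding genes *Dlk1*, *Rtl1* and *Dio3* and the lincRNA genes *Meg3*, *Rian* and *Mirg*. The reference holds 10929 CpGs there, of which 10718 (98.1%) had at least 3 reads in every genotype and are described here.

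DNA methylation was measured by whole genome bisulfite sequencing (WGBS) in J1 ESCs, a mouse embryonic stem cell line of the strain 129S4/SvJae grown with serum and LIF on gelatin. The unmodified cells (WT) were compared with cells lacking *Dnmt3a* (*Dnmt3a* KO) or *Dnmt3b* (*Dnmt3b* KO). The KO lines carry the genotypes Dnmt3a-/- and Dnmt3b-/-, were used at similar passage numbers, and keep the other de novo methyltransferase and DNMT1. There were 9 libraries, 3 for each of the 3 genotypes, and the 3 libraries of a genotype were merged into 1 table of reads per CpG before deposit. Each level below is therefore 1 pooled value per genotype, no test across replicates could be made, and the intervals cover counting error only. Neighbouring CpGs are read on the same DNA fragments, so that these intervals are too narrow. The reads checked the genotypes: 12 consecutive CpGs of *Dnmt3a* had no read in *Dnmt3a* KO ESCs against a mean depth of 31.4 in WT, and 30 consecutive CpGs of *Dnmt3b* had none in *Dnmt3b* KO ESCs against 31.5 in WT. The table used for WT ends on chromosome 4, so that the background is the part that all tables share, chromosomes 1 to 3 and 10 to 19 with part of chromosome 4.

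In the mouse the protein-coding genes of this cluster are expressed mainly from the paternal allele and the noncoding RNA genes from the maternal allele. The intergenic differentially methylated region (IG-DMR) between *Dlk1* and *Meg3* is methylated on the paternal allele from the sperm on and acts as the imprinting control region, and the *Meg3*-DMR at the *Meg3* promoter gains its methylation on the paternal allele after fertilization. DNMT3A and DNMT3B are de novo methyltransferases, and ZFP57 is a zinc finger protein known to bind the methylated hexamer TGCCGC and to protect imprints. The tables do not separate alleles, so that a level near the middle may come from methylation of 1 allele or from a mixture of cells, which cannot be told apart. Bisulfite does not separate methylcytosine from hydroxymethylcytosine either.

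Mean CpG methylation of the domain was 86.3% in WT, 57.2% without *Dnmt3a* and 80.5% without *Dnmt3b*. The KOs therefore differed from WT by -29.1 percentage points (*Dnmt3a*) and -5.82 points (*Dnmt3b*). As a share of all reads, the difference from WT was -28.3 points (95% interval -28.5 to -28.0) for *Dnmt3a* KO and -5.89 points (-6.08 to -5.70) for *Dnmt3b* KO. Over the shared part of the genome the means were 82.4%, 50.3% and 75.5%. The domain was thus more methylated than the shared part in every genotype. Among 1954 tiles of the shared part with the length of the domain, 661 had a higher level in WT, 253 without *Dnmt3a* and 375 without *Dnmt3b*. The difference between *Dnmt3a* KO and WT was smaller than in the domain in 232 of these tiles, and that between *Dnmt3b* KO and WT in 202.

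The losses ran along the whole domain rather than at few sites. For *Dnmt3a* KO, loss in nearly all windows of 1 kb was also the background, as given below. In all 87 windows of 10 kb both KOs had lower levels than WT. These windows ranged from 19.4 to 95.8% in WT with a median of 92.9%. Without *Dnmt3a* they lay between 9.39 and 78.5%, with a median of 62.4%, and without *Dnmt3b* between 14.5 and 92.2%, with a median of 87.4%. The share of CpGs with a level of at least 80% was 81.4% in WT, 24% without *Dnmt3a* and 70.1% without *Dnmt3b*. Over the shared part these shares were 77.1%, 16.9% and 63.1%. In *Dnmt3a* KO ESCs 63.2% of the CpGs had a level between 20 and 80%, against 13.8% in WT, so that most CpGs were left partly methylated. This was close to the shared part, with 64.2% in *Dnmt3a* KO ESCs and 14.3% in WT.

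**Figure D1:**
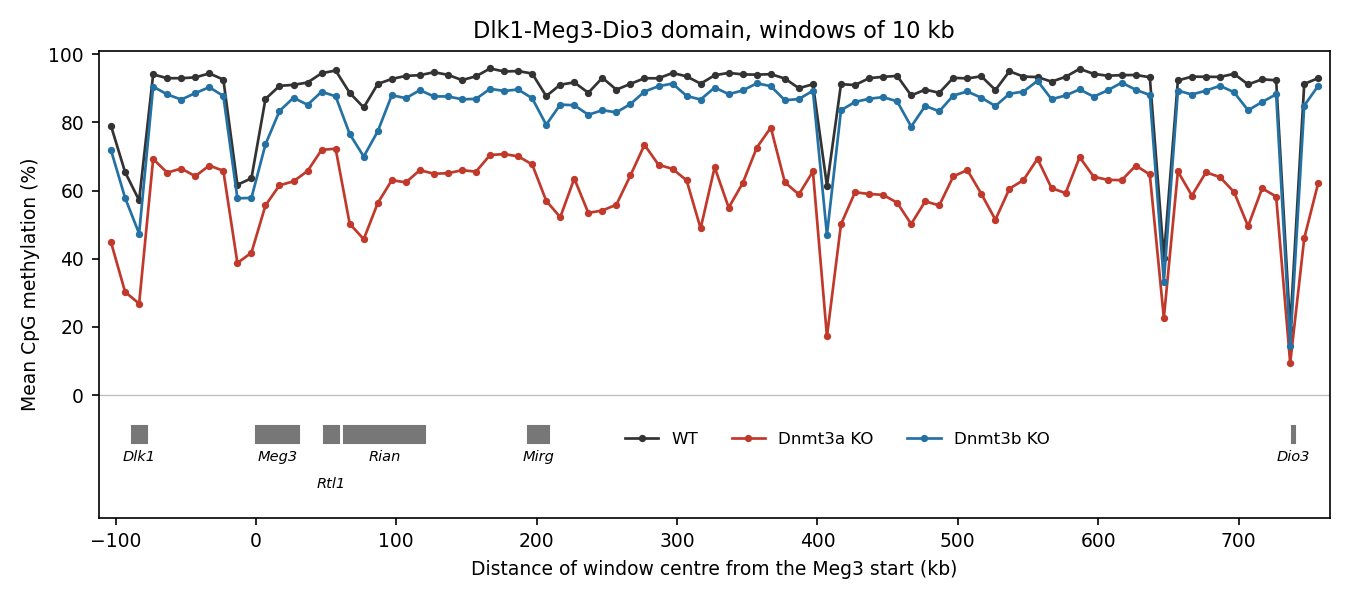
Mean CpG methylation (%) in 87 windows of 10 kb along the domain, plotted against the distance of the window centre from the *Meg3* start in kb, for WT (black), *Dnmt3a* KO (red) and *Dnmt3b* KO ESCs (blue), each point 1 pooled value; grey bars mark the 6 genes. The red line lies below the others in every window, and the lowest window of each genotype, at 19.4%, 9.39% and 14.5%, holds *Dio3*.

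At single CpGs, a call was made where the 95% credible interval of the difference lay beyond 0.2 (20 percentage points). In *Dnmt3a* KO ESCs 2326 of 10747 CpGs tested in the domain were called lower than WT, which is 21.6%, whereas 25.6% were called lower over the shared part. There 1 CpG was called higher, at chr12:111394744, where 8 of 16 reads were methylated in WT and 21 of 21 in *Dnmt3a* KO; the share called higher was 0.00703% over the shared part. Without *Dnmt3b*, 182 of 10803 CpGs were called lower, or 1.68% against 2.14% over the shared part, and 7 were called higher, against a background of 0.0690%. Directly compared, *Dnmt3a* KO ESCs had 1581 CpGs called lower and 9 called higher than *Dnmt3b* KO ESCs out of 10776, or 14.7% lower against a background of 16.8% lower and 0.0566% higher. The WT reads are shared by the comparisons of both KOs with WT. None of these shares was above its background in the direction of loss.

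The 7 CpGs called higher in *Dnmt3b* KO ESCs were 0.0648% of those tested, close to the 0.0690% of the shared part, and lay apart from each other. At chr12:110764290 in the IG-DMR stretch 10 of 32 reads were methylated in WT, 13 of 35 in *Dnmt3a* KO and 20 of 25 in *Dnmt3b* KO ESCs. Of the other 6, 4 lay between *Mirg* and *Dio3*, 1 between *Rian* and *Mirg* and 1 upstream of *Dlk1*. The stretch between *Mirg* and *Dio3* held 6377 of the 10803 CpGs tested, so that the counts do not rank the places. Few WT reads stand behind the call at chr12:111430424, with 1 of 4 methylated in WT, 14 of 16 in *Dnmt3a* KO and 16 of 16 in *Dnmt3b* KO ESCs.

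Windows of 1 kb gave the same order. Of 843 windows with at least 3 covered CpGs, 707 (83.9%) were lower than WT by more than 20 points in *Dnmt3a* KO ESCs, close to the 86.0% of windows of the shared part. Without *Dnmt3b*, 31 windows (3.68%) were lower by that much, against 7.26% over the shared part. No window was higher than WT by more than 20 points in either KO, where the shared part had 0.00535% (*Dnmt3a*) and 0.109% (*Dnmt3b*) of such windows. Of 798 windows with at least 5 covered CpGs, 796 were lower than WT by any amount without *Dnmt3a* and 687 without *Dnmt3b*. Windows lower by any amount were not counted over the shared part.

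Where at least 4 successive CpGs had the same call and no gap between neighbours exceeded 300 bp, the run was counted as a differentially methylated region. In *Dnmt3a* KO ESCs the domain held 92 such runs with lower methylation, with a median length of 200 bp, and 0 with higher methylation. This is 85.6 runs per 10000 CpGs tested, below the 106 of the shared part. Of the 92 runs, 62 lay between *Mirg* and *Dio3*, 7 in *Rian*, 5 in *Dlk1*, 7 in the upstream and 6 in the downstream flank, 3 between *Dlk1* and *Meg3*, 1 in *Meg3*, 1 between *Meg3* and *Rtl1*, and 0 in *Rtl1*, *Mirg* or *Dio3*. The places differ in CpGs tested, with 6338 of 10747 between *Mirg* and *Dio3*, 567 in *Rian*, 279 in *Dlk1* and 305 and 263 in the flanks. *Rtl1*, *Mirg* and *Dio3* had 244, 207 and 108, where the background rate gives few runs. The counts thus do not rank the places. The run with the most CpGs lay in the *Mirg* to *Dio3* stretch at chr12:111189707-111190173, where 15 CpGs averaged 86.6% in WT, 6.20% without *Dnmt3a* and 72.2% without *Dnmt3b*. Without *Dnmt3b*, 0 runs were found in the domain, where the shared part had 0.925 per 10000 CpGs tested, so that 0 runs in a stretch of this size is close to the background.

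The 3 genes expressed from the paternal allele differed widely in level. *Dlk1*, which encodes a membrane protein with EGF-like repeats known to restrain adipocyte differentiation, lies at chr12:110691033-110701546 on the plus strand. Its body averaged 59.1% in WT, 29.1% without *Dnmt3a* and 49.8% without *Dnmt3b* over 279 CpGs. As a share of reads the difference from WT was -32.0 points for *Dnmt3a* KO (-33.9 to -30.2) and -13.8 points for *Dnmt3b* KO (-15.6 to -11.9). By the mean over CpGs it was -30.0 points for *Dnmt3a* KO and -37.4 points with at least 10 reads. By strand, over different sets of CpGs, that mean differed by -38.4 points (plus) and -28.1 points (minus). Of all gene bodies of the shared part, 18.8% had a larger loss than *Dlk1* in *Dnmt3b* KO ESCs and 57.6% in *Dnmt3a* KO ESCs. By read share *Dlk1* had the largest difference of the 6 bodies in *Dnmt3b* KO, but by the mean over CpGs, on which these shares of genes rest, *Rian* did, with -10.2 points against -9.34 points for *Dlk1* and 14.0% of gene bodies beyond it.

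Within *Dlk1* the start and the end differed. The proximal promoter, 500 bp on both sides of the TSS, averaged 20.6% in WT, 6.44% without *Dnmt3a* and 18.6% without *Dnmt3b* over 49 CpGs, and the median CpG was at 0% in every genotype. It was not uniform, and the 300 bases before the start averaged 62.2%, 17.7% and 70.8% over 6 covered CpGs. The difference of the proximal promoter between *Dnmt3a* KO and WT was -18.1 points on the plus strand but -0.670 points on the minus strand, and -9.02 points with 1000 bp on both sides. The last exon, where the *Dlk1*-DMR is known to lie, averaged 90.3% in WT, 52.0% without *Dnmt3a* and 74.5% without *Dnmt3b* over 102 CpGs. By read share it differed from WT by -32.1 points for *Dnmt3a* KO (-34.7 to -29.5) and -14.9 points for *Dnmt3b* KO (-17.2 to -12.6). Set against the rest of the domain, this difference was further below 0 by -9.10 points for *Dnmt3b* KO (-11.4 to -6.79) and by -3.87 points for *Dnmt3a* KO (-6.42 to -1.27). CpGs called lower in *Dnmt3b* KO ESCs numbered 16 of 102 in this exon, or 15.7%, against 2.14% over the shared part.

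*Rtl1*, a retrotransposon-derived gene needed in the placenta, lies on the minus strand at chr12:110827404-110838540, and its body kept the most methylation of the 6 genes. It averaged 95% in WT, 76.1% without *Dnmt3a* and 88.8% without *Dnmt3b* over 244 CpGs. The difference of *Dnmt3a* KO from WT was -18.9 points. By strand, over different sets of CpGs, it was -12.8 points (plus) and -22.0 points (minus) for the *Rtl1* body. Only 8.20% of its tested CpGs were called lower in *Dnmt3a* KO ESCs, below the background of 25.6%. Of the 14205 gene bodies of the shared part, 99.7% had a lower level in *Dnmt3a* KO ESCs and 98.4% had a lower level in WT. Exons and introns of *Rtl1* were at 94.8% and 95.5% in WT but at 80.5% and 64.6% in *Dnmt3a* KO ESCs. The exon CpGs thus differed from WT by -14.4 points and the intron CpGs by -30.8 points.

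*Dio3*, whose enzyme inactivates thyroid hormones, lies at chr12:111517278-111519307 and was low in all 3 genotypes. Its body averaged 18.4% in WT, 6.17% without *Dnmt3a* and 10.7% without *Dnmt3b* over 108 CpGs. Its proximal promoter averaged 3.06%, 1.15% and 1.2% over 103 CpGs. The median CpG of that promoter was at 0% in every genotype. The 300 bases before the *Dio3* start, on the plus strand at chr12:111516978-111517277 of mm9, hold 38 CpGs, here in capitals, and are shown as the most CpG-dense promoter of the cluster.
*Dio3* promoter: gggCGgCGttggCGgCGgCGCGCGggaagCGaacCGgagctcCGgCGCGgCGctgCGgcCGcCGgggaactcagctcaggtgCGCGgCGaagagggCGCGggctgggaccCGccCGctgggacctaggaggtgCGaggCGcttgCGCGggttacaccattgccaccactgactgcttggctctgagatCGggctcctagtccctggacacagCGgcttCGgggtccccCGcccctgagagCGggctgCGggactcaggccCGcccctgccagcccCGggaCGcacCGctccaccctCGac
The 34 covered CpGs of these bases averaged 0.815% in WT and 0% in both KOs, at mean depths of 21.5, 6.50 and 12.2 reads. A loss cannot be seen where WT is already near 0%.

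Among the maternally expressed genes, *Meg3*, a lincRNA gene at chr12:110779211-110809936, averaged 84.1% over its body in WT, 56.2% without *Dnmt3a* and 76.1% without *Dnmt3b*. *Rian*, which hosts C/D box snoRNAs, lies at chr12:110842155-110899919 and averaged 89.6%, 55.1% and 79.5% over 565 CpGs. *Mirg*, which hosts miRNAs, lies at chr12:110973191-110987665 and averaged 93.2%, 65.7% and 85.4% over 207 CpGs. All 3 were lower in both KOs, and each had its lowest level without *Dnmt3a*. By read share the differences from WT in *Dnmt3a* KO ESCs were -28.6 points for *Meg3* (-29.7 to -27.4), -33.5 points for *Rian* (-34.5 to -32.5) and -26.8 points for *Mirg* (-28.4 to -25.2). For *Dnmt3b* KO they were -8.53 points for *Meg3*, -10.1 for *Rian* and -8.39 for *Mirg*, each with an interval below 0. The intervals of *Meg3* and *Mirg* overlapped in both KOs, and those of *Rian* and *Mirg* overlapped for *Dnmt3b* KO (-10.9 to -9.20 and -9.62 to -7.17) but not for *Dnmt3a* KO. By the mean over CpGs, *Meg3*, *Rian* and *Mirg* differed from WT by -27.9, -34.5 and -27.5 points in *Dnmt3a* KO. In *Dnmt3b* KO they differed by -7.98, -10.2 and -7.80 points. Over all gene bodies of the shared part the median difference by that measure was -31.2 points for *Dnmt3a* KO and -6.65 points for *Dnmt3b* KO.

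In *Rian* the loss in *Dnmt3b* KO ESCs was uneven. The 3 windows of 1 kb of the domain with the largest losses in that KO all lay in *Rian*. The window at chr12:110869001-110870000 averaged 94.7% in WT, 43.5% without *Dnmt3a* and 57.3% without *Dnmt3b* over 6 CpGs. The window at chr12:110851001-110852000, with 38 CpGs, averaged 58.3%, 14.0% and 27.6%. The third, at chr12:110879001-110880000 with 5 CpGs, averaged 74.9%, 44.0% and 45.9%. In the first and the third of these windows few CpGs stand behind the values.

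The promoters of *Rtl1*, *Rian* and *Mirg* held few CpGs and were highly methylated. The proximal promoter of *Rtl1* averaged 95.8% in WT, 74.6% without *Dnmt3a* and 88.1% without *Dnmt3b* over 15 CpGs. That of *Mirg* averaged 90.7%, 69.5% and 92.5% over 16 CpGs, and its read share in *Dnmt3b* KO ESCs differed from WT by 0.676 points (-3.82 to 5.27), within counting error. The mean over CpGs differed by 15.2 points on the plus strand and by -14.7 points around the start of the longest spliced *Mirg* transcript, so that no direction is given. For *Dnmt3a* KO the *Mirg* promoter differed by -21.2 points with both strands together but by 2.54 points on the plus strand, over 7 CpGs whose read share differed by -6.67 points (-23.2 to 10.3), within counting error. That of *Rian* averaged 89.1%, 57.5% and 71.6% over 4 CpGs, and the difference of *Dnmt3b* KO from WT, -17.4 points, was -3.08 points around the start of the longest spliced *Rian* transcript. The 300 bases before the annotated *Rian* start, on the plus strand at chr12:110841855-110842154 of mm9, hold 0 CpGs and are shown as the contrast to *Dio3*.
*Rian* promoter: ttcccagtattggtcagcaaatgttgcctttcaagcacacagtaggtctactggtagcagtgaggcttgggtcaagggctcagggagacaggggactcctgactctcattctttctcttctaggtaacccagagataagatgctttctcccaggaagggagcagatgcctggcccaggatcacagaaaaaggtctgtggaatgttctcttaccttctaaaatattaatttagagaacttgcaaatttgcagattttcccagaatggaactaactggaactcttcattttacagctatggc
No level can be given for these bases. The 14052 proximal promoters of the shared part had medians of 6.57% in WT, 1.36% without *Dnmt3a* and 3.78% without *Dnmt3b*.

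**Figure D2:**
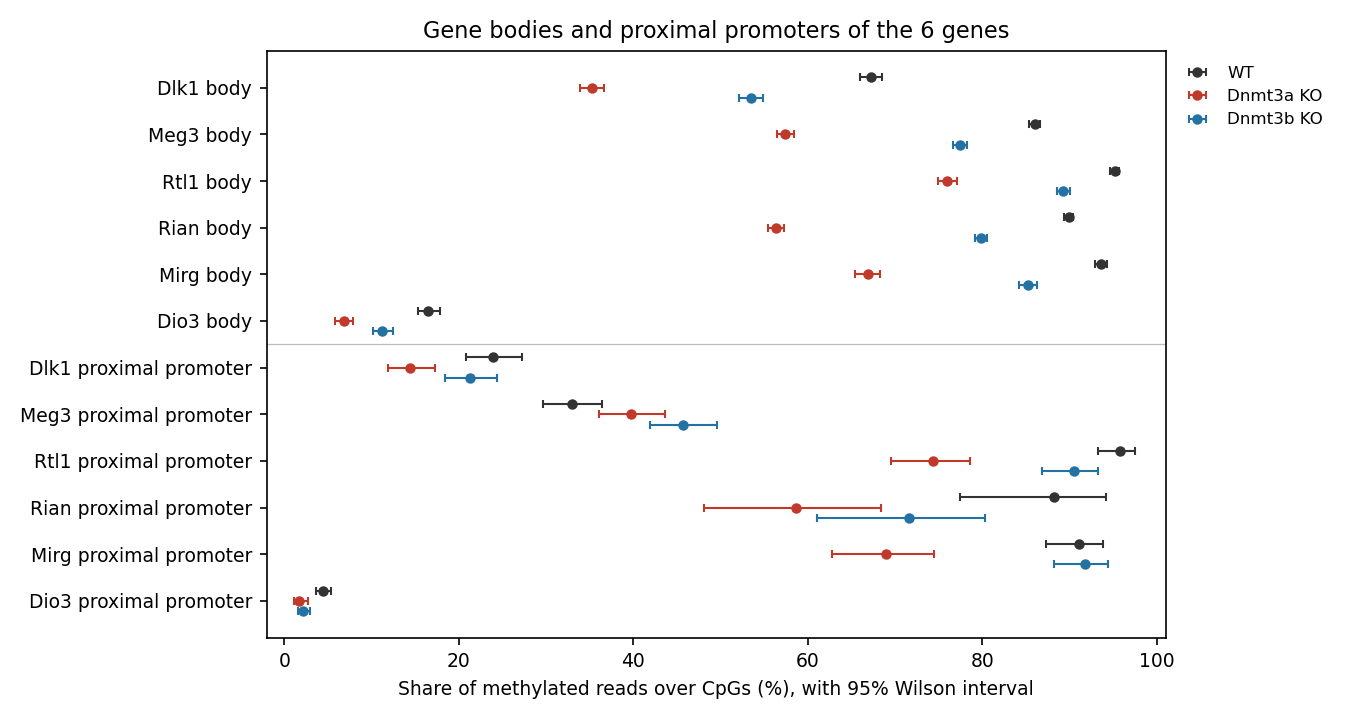
Share of methylated reads (%) over the bodies and proximal promoters of the 6 genes in WT (black), *Dnmt3a* KO (red) and *Dnmt3b* KO ESCs (blue), with bars for the 95% Wilson interval of the pooled reads. The red points lie to the left of the others except at the proximal promoter of *Meg3*. There WT is lowest at 33.0% with both strands together. On the plus strand alone, which covers fewer CpGs, WT is highest there, within counting error of *Dnmt3b* KO. The *Dio3* promoter is near 0% in each genotype.

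The stretch between *Dlk1* and *Meg3*, at chr12:110701547-110779210, averaged 85.0% in WT, 58.8% without *Dnmt3a* and 80.3% without *Dnmt3b* over 1006 CpGs. Within it the IG-DMR was taken as the bases from 16 to 10 kb upstream of the *Meg3* start, at chr12:110763211-110769210. This stretch averaged 58.2% in WT, 36.3% without *Dnmt3a* and 56.1% without *Dnmt3b* over 145 CpGs, at mean depths of 26.8, 24.6 and 27.7 reads. The remaining 861 CpGs between the 2 genes averaged 89.5%, 62.6% and 84.3%. The IG-DMR was therefore the less methylated part of this stretch in every genotype. In WT 83.4% of its CpGs had a level between 20 and 80%, and in each KO this share was the same, but the outer classes were not. CpGs under 20% made up 0.690% in WT, 15.9% without *Dnmt3a* and 4.83% without *Dnmt3b*, and CpGs at 80% or more 15.9%, 0.690% and 11.7%.

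Of the reads in the IG-DMR stretch 56.1% were methylated in WT (54.5 to 57.6%), 36.9% without *Dnmt3a* (35.3 to 38.5%) and 57.7% without *Dnmt3b* (56.1 to 59.2%). *Dnmt3a* KO ESCs thus differed from WT by -19.2 points (-21.4 to -16.9). *Dnmt3b* KO ESCs differed by 1.59 points (-0.592 to 3.78), within counting error, and the mean over CpGs gave -2.10 points, of the opposite sign. In *Dnmt3a* KO ESCs the loss was 9.23 points smaller than over the other 10573 CpGs of the domain (7.01 to 11.5), and in *Dnmt3b* KO ESCs 7.56 points smaller (5.37 to 9.75). By strand the read shares gave other values. Each strand was taken over CpGs with at least 3 reads on it in every genotype, so that the strands cover different sets of CpGs. For *Dnmt3a* KO the difference was -13.9 points on the plus strand (-16.9 to -10.8) and -25.3 points on the minus strand (-28.8 to -21.8), against -27.8 and -28.9 points over the domain, so that the gap to the domain was wider on the plus strand. For *Dnmt3b* KO it was 9.08 points on the plus strand (6.04 to 12.1) and -6.66 points on the minus strand (-10.0 to -3.26), the latter close to the -5.96 points of the domain on that strand. The lower start in WT has to be set beside this. Relative to WT, the IG-DMR stretch kept 62.4% of its mean level in *Dnmt3a* KO ESCs and the whole domain kept 66.2%, so that in relative terms the stretch did not keep more. Without *Dnmt3b* it kept 96.4% and the domain 93.3%.

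Windows that start at a like level in WT give a further reference. Over the shared part, 12104 windows of 1 kb with at least 10 covered CpGs had a level of 40 to 60% in WT, and their medians were 51.4% in WT, 14.6% without *Dnmt3a* and 36.5% without *Dnmt3b*. The IG-DMR stretch, at 36.3% and 56.1% in the KOs, was above both medians. From the 5th to the 95th percentile the windows differed from WT by -50.6 to -14.4 points (*Dnmt3a*) and -28.4 to -0.508 points (*Dnmt3b*). The stretch, at -21.9 and -2.10 points, lay within both ranges. The 11 windows of the whole domain in that class had medians of 54.6%, 20.5% and 42.4%. They include windows of the IG-DMR and *Meg3*-DMR stretches themselves, so that they are not a separate reference.

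The 300 bases of the IG-DMR stretch with the most CpGs, on the plus strand at chr12:110766374-110766673 of mm9, are shown because they hold 30 CpGs, in capitals, and 5 copies of the hexamer TGCCGC.
IG-DMR: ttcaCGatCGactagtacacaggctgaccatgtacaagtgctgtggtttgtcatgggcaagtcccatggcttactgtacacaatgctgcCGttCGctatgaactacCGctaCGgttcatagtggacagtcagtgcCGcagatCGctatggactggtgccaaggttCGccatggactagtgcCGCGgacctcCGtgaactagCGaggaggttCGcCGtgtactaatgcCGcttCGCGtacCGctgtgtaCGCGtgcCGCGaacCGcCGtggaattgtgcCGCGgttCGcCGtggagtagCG
Its CpGs lay between 40 and 80% in WT with a mean of 60.2%. Without *Dnmt3a* they lay between 16.7 and 52.4% with a mean of 34.0%, and without *Dnmt3b* between 19 and 83.3% with a mean of 62.6%. Every CpG of these bases thus kept part of its methylation in all genotypes.

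The hexamer was searched on both strands, and its copies do not overlap each other. The IG-DMR stretch holds 10 copies in 6 kb, while 26.7% of the 19556 tiles of 6 kb of chromosome 12 hold at least 1, with a median of 0 and a maximum of 9 on the grid used. The hexamer holds a CpG, and the stretch has 149 reference CpGs against a tile median of 41 and a 95th percentile of 102, so that the tiles are not matched to it. A match says only that the letters are there. The CpGs of the 10 copies averaged 60.8% in WT, 36.0% without *Dnmt3a* and 66.4% without *Dnmt3b*, and the other 135 CpGs of the stretch 58.0%, 36.4% and 55.4%. The hexamer CpGs were thus close to the other CpGs in WT and *Dnmt3a* KO ESCs, while in *Dnmt3b* KO ESCs their mean over 10 CpGs was higher.

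Much like the whole IG-DMR stretch, where 114 of 145 CpGs were lower than WT in *Dnmt3a* KO ESCs, 8 of the 10 copies were lower. The other two, copies 1 and 4, and the copy with the largest loss, copy 10, were picked after their values had been seen and are shown with 12 bases on each side, the hexamer in capitals and each strand read 5′ to 3′.
IG-DMR copy 1, chr12:110764389-110764418, minus strand: tctcattctcacTGCCGCtaggcaaccaac
IG-DMR copy 4, chr12:110765806-110765835, minus strand: accacgtagcagTGCCGCaacacacttggc
IG-DMR copy 10, chr12:110768639-110768668, plus strand: ttgtcggcggttTGCCGCaacctaattccg
At copy 1, 20 of 40 reads were methylated in WT, 17 of 28 in *Dnmt3a* KO and 26 of 29 in *Dnmt3b* KO ESCs. At copy 4 the counts were 18 of 55, 13 of 32 and 27 of 42. At copy 10 they were 24 of 31, 1 of 31 and 24 of 38. Copy 10 was thus nearly without methylation in *Dnmt3a* KO ESCs, and it lies in the only run of called CpGs of the IG-DMR, at chr12:110768609-110768654, where 4 CpGs averaged 75.2% in WT, 6.20% without *Dnmt3a* and 50.0% without *Dnmt3b*.

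In bins of 500 bp the IG-DMR was not uniform. From 13.5 to 13 kb upstream of the *Meg3* start, 18 CpGs averaged 42.7% in WT, 47.2% without *Dnmt3a* and 53.2% without *Dnmt3b*, and here neither KO was below WT. From 12.5 to 12 kb upstream, 5 CpGs averaged 57.6%, 16.5% and 27.6%, lower in both. From 15 to 14.5 kb upstream, 10 CpGs averaged 46.7%, 42.2% and 68.4%, so that the level was highest in *Dnmt3b* KO ESCs. The window of 1 kb with the most positive difference of the domain in *Dnmt3b* KO ESCs, at chr12:110764001-110765000, lies here with 54.9% in WT, 39.7% without *Dnmt3a* and 68.5% without *Dnmt3b* over 28 CpGs. The corresponding window for *Dnmt3a* KO ESCs, at chr12:110769001-110770000, overlaps the end of the stretch, with 62.6%, 66.7% and 44.9% over 10 CpGs.

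**Figure D3:**
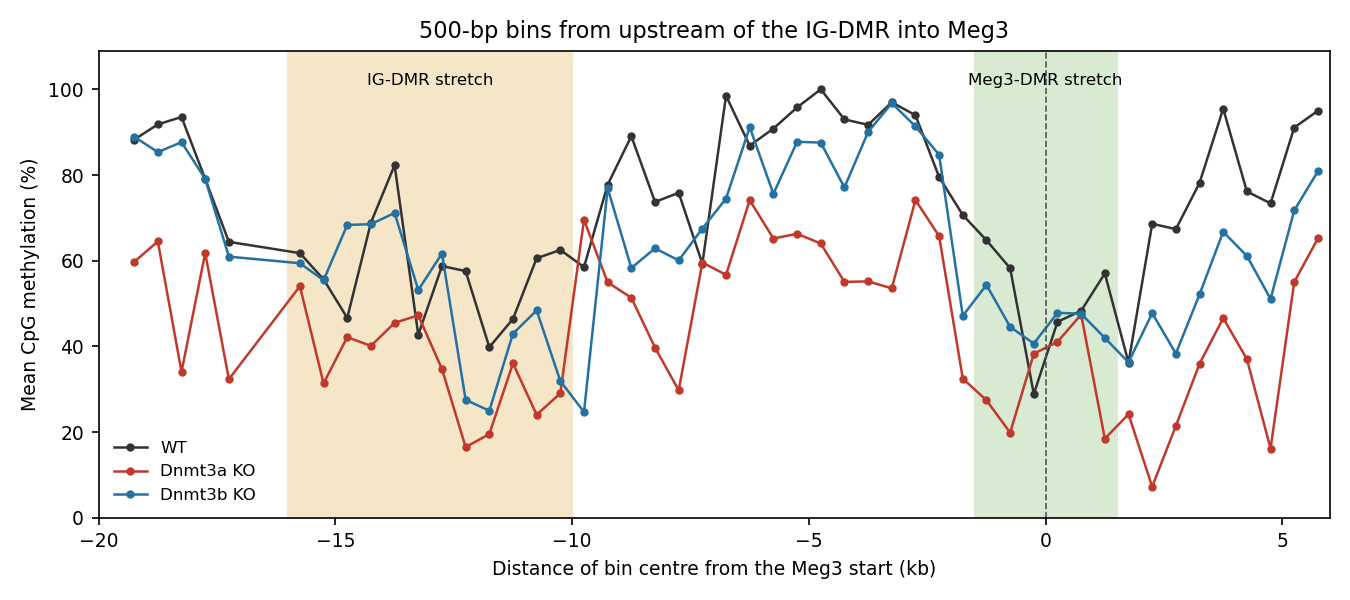
Mean CpG methylation (%) in bins of 500 bp with at least 3 covered CpGs, plotted against the distance of the bin centre from the *Meg3* start in kb, for WT (black), *Dnmt3a* KO (red) and *Dnmt3b* KO ESCs (blue); the IG-DMR stretch is shaded in ochre and the *Meg3*-DMR stretch in green, and the dashed line marks the start. WT falls from above 90% into both shaded stretches, and the lines of the 3 genotypes meet near the start. There the order differs between the strands, which cover different CpGs.

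The *Meg3*-DMR stretch, 1.5 kb on both sides of the *Meg3* start at chr12:110777711-110780711, averaged 50.6% in WT, 32.8% without *Dnmt3a* and 46.4% without *Dnmt3b* over 102 CpGs. By read share the difference from WT was -17.2 points in *Dnmt3a* KO (-20.2 to -14.2) and -1.29 points in *Dnmt3b* KO ESCs (-4.29 to 1.72), the latter within counting error with both strands together. On single strands *Dnmt3b* KO differed by -6.65 points (plus, -11.0 to -2.26) and 6.31 points (minus, 1.60 to 11.0), in opposite directions. The loss in *Dnmt3a* KO ESCs was 11.2 points smaller than over the rest of the domain (8.16 to 14.2), and relative to WT the stretch kept 64.9% of its mean level. By strand the read share in *Dnmt3a* KO ESCs differed from WT by -20.6 points (plus) and -11.8 points (minus), so that here the gap to the domain was wider on the minus strand.

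With both strands together, the levels lay far apart at the sides of the start and close together at the start itself, where the strands taken apart differed, as given below. From 1 to 0.5 kb upstream the bins averaged 58.3% in WT, 19.9% without *Dnmt3a* and 44.6% without *Dnmt3b*. In the 0.5 kb before the start they averaged 28.9%, 38.3% and 40.7%, in the 0.5 kb after it 45.7%, 41.1% and 47.8%, and in the next 0.5 kb 48.3%, 47.4% and 47.6%. From 1 to 1.5 kb downstream the levels were apart again, at 57.0%, 18.5% and 42.0%. The 1-kb window that holds the start, at chr12:110779001-110780000, averaged 43.3% in WT, 45.2% without *Dnmt3a* and 46.0% without *Dnmt3b* over 40 CpGs. Over the 12104 windows of the shared part that were at 40 to 60% in WT, the median difference was -35.3 points for *Dnmt3a* KO and -14 points for *Dnmt3b* KO, with both strands together.

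The 300 bases before the start of the longest *Meg3* isoform, on the plus strand at chr12:110778915-110779214 of mm9, are shown because they carry this contrast. They hold 11 CpGs, in capitals, and 1 copy of the hexamer, on the minus strand.
*Meg3* promoter: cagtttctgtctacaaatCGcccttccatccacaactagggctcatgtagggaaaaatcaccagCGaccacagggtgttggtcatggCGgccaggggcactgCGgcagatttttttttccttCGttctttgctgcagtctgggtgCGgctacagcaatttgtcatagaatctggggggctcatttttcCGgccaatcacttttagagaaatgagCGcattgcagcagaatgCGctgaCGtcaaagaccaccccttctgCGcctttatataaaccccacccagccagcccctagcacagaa
Its CpGs lay between 17.1 and 43.8% in WT, 0 and 53.8% without *Dnmt3a*, and 15.4 and 66.7% without *Dnmt3b*, with means of 28.0%, 34.2% and 39.8%. At the CpG of the hexamer 3 of 15 reads were methylated in WT, 5 of 10 in *Dnmt3a* KO and 10 of 28 in *Dnmt3b* KO ESCs, which is too few to separate them. Over the shared part 12% of the 300-base stretches before annotated starts hold the hexamer.

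Over the proximal promoter of *Meg3*, 500 bp on both sides of its start, 34 CpGs averaged 37.9% in WT, 39.4% without *Dnmt3a* and 45.1% without *Dnmt3b*. Of 16 CpGs before the start 11 were above WT in each KO, and of 18 CpGs from the start on 7 were above WT without *Dnmt3a* and 11 without *Dnmt3b*. None of the 34 was called in either KO, where 25.6% (*Dnmt3a* KO) and 2.14% (*Dnmt3b* KO) of CpGs were called lower over the shared part. The shared part is more methylated in WT, so that these shares are not matched to the promoter, and for *Dnmt3b* KO few calls would be seen in any case. The share of methylated reads was 33.0% in WT (29.7 to 36.5%), 39.8% without *Dnmt3a* (36.1 to 43.6%) and 45.7% without *Dnmt3b* (41.9 to 49.6%). The distal promoter, from 3000 to 500 bp upstream, averaged 68.1%, 33.9% and 56.5%, so that it was lower in both KOs.

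The strands of the reads did not give the same answer at this promoter. On the plus strand 46.4% of the reads were methylated in WT, 25.7% without *Dnmt3a* and 41.9% without *Dnmt3b*, over 20 CpGs with 192, 148 and 198 reads. On the minus strand the shares were 26.7%, 44.0% and 47.0%, over 27 CpGs with 453, 366 and 355 reads. The mean over CpGs differed from WT by -18.8 points (*Dnmt3a*) and -14 points (*Dnmt3b*) on the plus strand and by 14.3 and 21.4 points on the minus strand. By read share the plus strand differed by -20.7 points for *Dnmt3a* KO (-30.2 to -10.4). For *Dnmt3b* KO it differed by -4.43 points (-14.1 to 5.38), within counting error. With the strands apart, the higher level in the KOs was seen on the minus strand only. The 20 and 27 CpGs are not the same set, and levels also changed with position. CpGs covered on both strands were not compared by themselves, so that strand and position were not separated here. With 1000 bp on both sides of the start the difference in *Dnmt3a* KO ESCs was -7.68 points. Over the whole domain the strands differed little, with read shares of 87.5% and 88.9% in WT, 59.7% and 60.01% without *Dnmt3a*, and 81.7% and 83.0% without *Dnmt3b*. In the IG-DMR stretch the plus strand gave 53.4%, 39.5% and 62.5% and the minus strand 59.0%, 33.6% and 52.3%. The order of WT and *Dnmt3b* KO ESCs therefore changed between strands there, while *Dnmt3a* KO ESCs were lowest on both. Neither the different CpGs covered nor sampling of few fragments from 2 alleles was tested as a source of these differences.

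**Figure D4:**
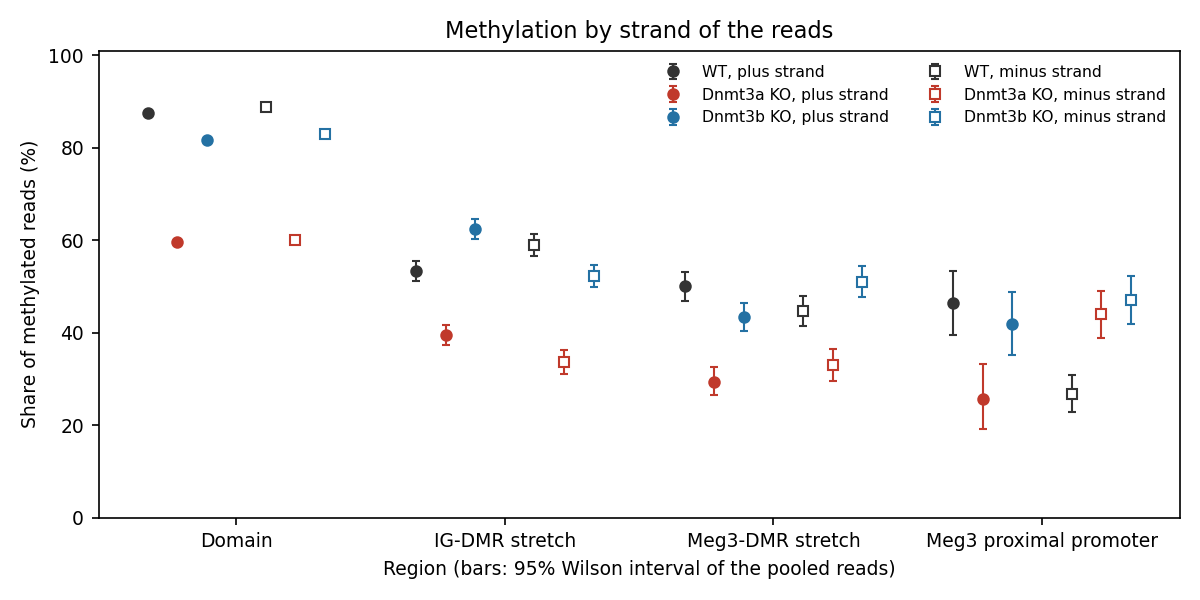
Share of methylated reads (%) from the plus strand (filled circles) and the minus strand (open squares) over the domain, the IG-DMR stretch, the *Meg3*-DMR stretch and the *Meg3* proximal promoter in WT (black), *Dnmt3a* KO (red) and *Dnmt3b* KO ESCs (blue), with bars for the 95% Wilson interval of the pooled reads. The strands lie close together over the domain, whereas at the *Meg3* promoter WT is the highest on the plus strand at 46.4% and the lowest on the minus strand at 26.7%. The strands cover different CpGs, and on the plus strand *Dnmt3b* KO ESCs are there within counting error of WT.

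The promoters of 8 other imprinted genes, listed from textbook knowledge of germline DMRs, were set beside these stretches. Each was taken as 500 bp on both sides of the TSS and held from 15 (*Impact*) to 103 (*Grb10*) covered CpGs, against 145 in the IG-DMR stretch. They were matched to that stretch neither in size nor in the parental allele that carries the methylation. Nearest to the IG-DMR stretch, by the sum of the absolute differences over the 3 genotypes, were *Zrsr1* with 57.1% in WT, 39.1% without *Dnmt3a* and 47.8% without *Dnmt3b*, *Airn* with 63.0%, 36.6% and 43.8%, and *Impact* with 51.7%, 34.7% and 42.4%. By read share, *Dnmt3b* KO ESCs differed from WT at these 3 promoters by -6.33 points (-9.75 to -2.88), -18.5 points (-24.8 to -12) and -9.24 points (-17.8 to -0.522), and the interval at *Plagl1*, -1.13 points (-4.48 to 2.23), held 0, as did that of the IG-DMR stretch with both strands together. The *Dnmt3b* KO level is part of the measure that picked the nearest 3. At *Plagl1* the read share of *Dnmt3a* KO ESCs was above that of WT, with a difference of 3.54 points (0.0287 to 7.05), and *Nespas* differed by -2.23 points (-6.73 to 2.27). In *Dnmt3a* KO ESCs *Mcts2* differed from WT by -13.2 points and *Nnat* by -25 points, and in *Dnmt3b* KO ESCs *Nnat* differed by 30.02 points. *Mcts2* and *Nespas* differed in *Dnmt3b* KO ESCs by -12.3 points (-15.7 to -9.00) and -5.96 points (-10.4 to -1.54). The *Grb10* promoter taken here was near 0% in all genotypes and thus shows no imprint.

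**Figure D5:**
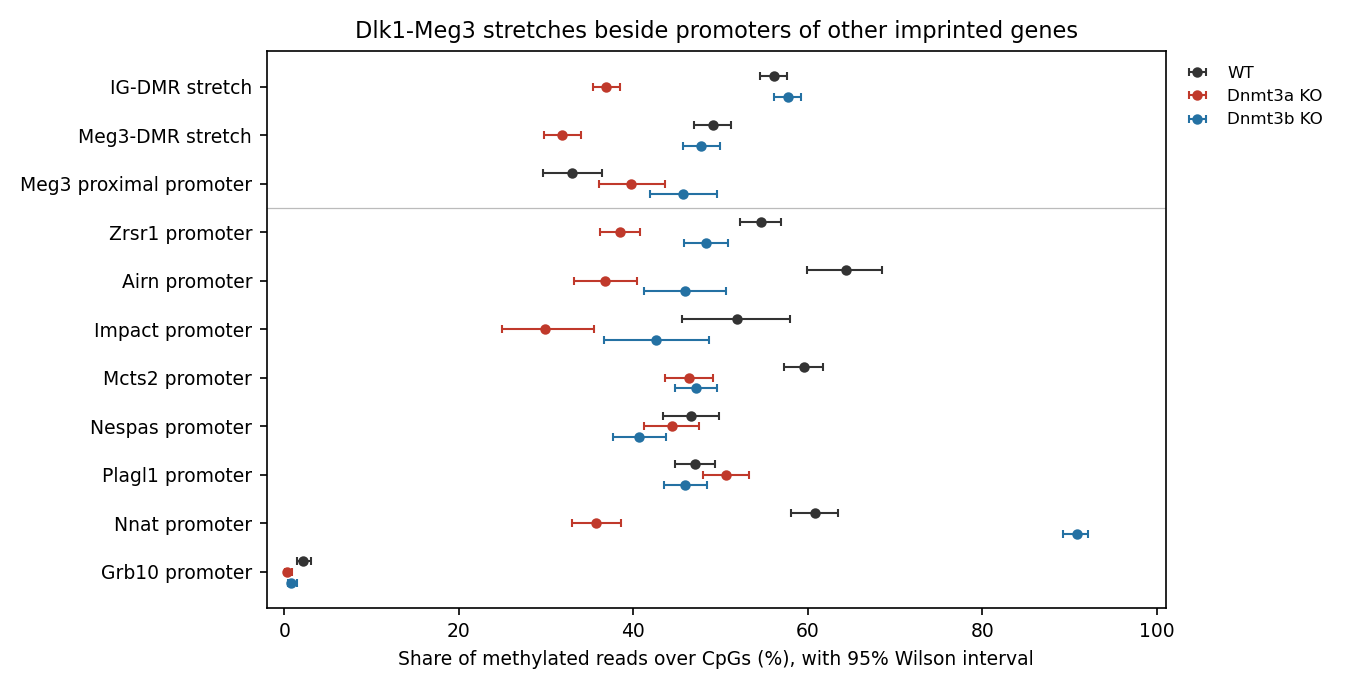
Share of methylated reads (%) in the IG-DMR stretch, the *Meg3*-DMR stretch and the *Meg3* proximal promoter, above the line, and in the promoters of 8 other imprinted genes, below it, for WT (black), *Dnmt3a* KO (red) and *Dnmt3b* KO ESCs (blue) with 95% Wilson intervals of the pooled reads. The IG-DMR stretch is at 36.9% in *Dnmt3a* KO ESCs, and 7 of the 8 other promoters lie between 29.9% and 50.6% there, while *Nnat* is at 90.8% in *Dnmt3b* KO ESCs.

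The cluster is rich in small RNA genes, with 57 miRNA and 23 snoRNA genes annotated in the domain. Of these 80 genes, 17 lie within *Rian*, 10 within *Mirg*, 2 within *Meg3*, 6 within *Rtl1* and 45 in none of the 6 genes. With 500 bp on both sides, 77 of them had at least 5 covered CpGs, and their medians were 94.2% in WT, 69.2% without *Dnmt3a* and 87.9% without *Dnmt3b*. All 77 were lower than WT without *Dnmt3a* and 71 without *Dnmt3b*, much like the windows of the domain, of which 796 and 687 of 798 were lower. Small RNA genes of the shared part were not counted in this way. Neighbouring small RNA genes share CpGs, so that they are not independent. Without *Dnmt3a* the median was 62.8% for 15 genes within *Rian*, 69.2% for the 10 within *Mirg*, 52.7% for the 2 within *Meg3*, 78.1% for the 6 within *Rtl1* and 69.5% for 44 outside the 6 genes.

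The lowest level in *Dnmt3a* KO ESCs was at *Mir1247* (chr12:111516258-111516339), which lies upstream of *Dio3* and averaged 2.30% in WT, 0.922% without *Dnmt3a* and 1.70% without *Dnmt3b* over 95 CpGs. Next came 2 snoRNA genes in *Rian*, a SNORD113 copy at 95.7%, 40.1% and 64.9% over 5 CpGs and SNORD112 at 92.5%, 43.1% and 83.3% over 19 CpGs. The highest levels in *Dnmt3a* KO ESCs were at *Mir127* (chr12:110831042-110831138), with 95.1%, 86.2% and 92.5% over 39 CpGs, AC121784.4 with 94.9%, 83.5% and 93.0%, and *Mir431* (chr12:110828657-110828747) with 94.7%, 82.9% and 92.3%. Both *Mir127* and *Mir431* lie within *Rtl1* on the opposite strand and so belong to the gene body with the highest level. Of the 57 miRNA genes 48 matched the RefSeq table of mature sequences (GRCm38.p6). The mature miRNAs at the ends of this order are shown with the seed, bases 2 to 8, in capitals.
mmu-miR-1247-5p: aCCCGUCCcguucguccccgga
mmu-miR-1247-3p: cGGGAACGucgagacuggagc
mmu-miR-127-5p: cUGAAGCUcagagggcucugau
mmu-miR-127-3p: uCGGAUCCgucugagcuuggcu
mmu-miR-431-5p: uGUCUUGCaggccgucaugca
mmu-miR-431-3p: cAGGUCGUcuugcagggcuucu
No seed is shared among them. The data hold DNA methylation around these genes and not the level of the RNAs.

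CpG density went with the size of the loss. Among CpGs with at least 8 CpGs within 100 bp, the means of the domain were 63.0% in WT, 42.5% without *Dnmt3a* and 57.7% without *Dnmt3b*, a class that mixes the low *Dio3* region with methylated sequence. Therefore windows of 1 kb with at least 80% in WT were taken by themselves. In the domain those with 5 to 9 reference CpGs had a median of 60.1% in *Dnmt3a* KO ESCs, those with 10 to 19 of 64.2% and those with 20 or more of 68.2%, over 254, 411 and 80 windows. Over the shared part the medians were 57.9%, 59.4% and 61.4%. Without *Dnmt3b* the medians of the domain were 87.7%, 88.6% and 90.9%. CpG-dense methylated windows of the domain thus kept more methylation in *Dnmt3a* KO ESCs than CpG-poor ones. In each class the median of the domain was above that of the shared part. It still lay within the shared part's quartiles of 49.7 to 65.4%, 50.4 to 66.7% and 48.3 to 72.0%. For 5 to 9 CpGs the median differences from WT were close, at -33.1 points in the domain and -33.8 points over the shared part.

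The stretch between *Mirg* and *Dio3*, at chr12:110987666-111517277, is 529.61 kb long, holds none of the 6 genes and averaged 87.9% in WT, 58.1% without *Dnmt3a* and 82.8% without *Dnmt3b* over 6322 CpGs. The window of the domain with the largest loss in *Dnmt3a* KO ESCs lies in it at chr12:111196001-111197000, with 90.1% in WT, 11.8% without *Dnmt3a* and 84.0% without *Dnmt3b* over 13 CpGs. The next largest losses were just downstream of *Dio3*, at chr12:111522001-111523000 with 87.0%, 10.7% and 71.8%, and at chr12:111521001-111522000 with 84.9%, 11.8% and 81.5%. These windows held little methylation without *Dnmt3a* and kept most of it without *Dnmt3b*. The smallest differences in *Dnmt3a* KO ESCs were at windows already low in WT, chr12:111516001-111517000 with 1.19%, 0.930% and 0.986% and chr12:111186001-111187000 with 4.10%, 1.05% and 5.60%, and at the window of the *Meg3* start given above. For *Dnmt3b* KO they were at windows high in WT, such as chr12:111167001-111168000 with 93.9% in WT and 93.8% in *Dnmt3b* KO ESCs, and 64.6% in *Dnmt3a* KO ESCs.

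A pair of low stretches far from the genes was picked after their values had been seen. The 4 windows of 1 kb that follow the one at chr12:111186001-111187000, given above, were at 41.2%, 71.9%, 74.6% and 86.4% in WT. In *Dnmt3a* KO ESCs the same 4 windows were at 2.64%, 3.62%, 6.21% and 16.5%, and in *Dnmt3b* KO ESCs at 16.8%, 43.0%, 54.7% and 74.8%. The low stretch was thus wider in *Dnmt3a* KO ESCs than in WT on this side. The other, at chr12:111425001-111428000, holds 155 CpGs in 3 kb and averaged 19.3% in WT, 9.62% without *Dnmt3a* and 10.6% without *Dnmt3b*, with similar levels in both KOs.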

How the data were processed

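The authors had merged the 3 WGBS libraries of each genotype into 1 table, which was used here. The authors aligned paired-end reads to mm9 with BSMAP (version not given in the sources used here), trimmed end-repair bases and removed clonal reads and overlapping mate segments with BSeQC, and counted methylated and all reads per CpG with MOABS mCall. The deposited read counts per CpG, in total and by strand, are not normalized, and the authors' methylation ratio is a fraction from 0 to 1 of these counts. A check found 0 rows that failed the tests of sums, ratios and reference CpGs. The last WT row is incomplete and was left out.

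The members, gene lists and tests were chosen with earlier results of these data known. Genes came from GENCODE (release M1) for the same build, and the TSS was that of the isoform longest in the genome. Levels are means of ratios over CpGs that had 3 reads or more in each table. Values by strand ask for 3 reads or more on that strand, so that the strands differ in the CpGs covered. Mean depth in the domain was 25.6 reads for WT, 22.5 without *Dnmt3a* and 24.2 without *Dnmt3b*. Intervals are 95% Wilson intervals of read shares, and Newcombe intervals of differences. Calls used Beta posteriors with a uniform prior and counts capped at 200 reads, and were tested on simulated data. Background values are over the shared part. Named windows are, with at least 5 covered CpGs, the 3 with the largest and the 3 with the smallest difference per KO, and named small RNA genes the 3 highest and the 3 lowest in *Dnmt3a* KO ESCs. The alternatives changed the minimum of reads, the weighting, the depth, the strand, the region limits and the call rules. A class of repeat-masked CpGs could not be made because the reference used is not masked, and the promoters of *Peg3* and *Snrpn* were not analysed here. Python 3.11.15, NumPy 2.4.6, SciPy 1.17.1, numba 0.67.0, PyArrow 21.0.0 and matplotlib 3.10.9 were used.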

Additional observations from a re-analysis of the deposited data

How the results depend on the processing

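Of 149 alternative values for *Dnmt3a* KO minus WT, 140 were below 0, and of 149 for *Dnmt3b* KO, 130. Signs turned at the *Meg3* and *Mirg* promoters and, for *Dnmt3b* KO, at the IG-DMR and *Meg3*-DMR stretches. At the *Meg3* promoter *Dnmt3a* KO minus WT was -18.8 points on the plus strand and -7.68 with 1000 bp on both sides. It was -40.5 at the start of the longest spliced transcript, a start chosen after seeing the data. At the same promoter *Dnmt3b* KO minus WT was -14 on the plus strand, where its read share differed within counting error, and -17.5 at that start. At the *Mirg* promoter *Dnmt3a* KO minus WT was 2.54 on the plus strand, over 7 CpGs, and *Dnmt3b* KO minus WT, 1.81 by the mean over CpGs, was -2.48 with 1000 bp on both sides and -14.7 at the start of the longest spliced transcript. For the domain, *Dnmt3a* KO minus WT was -28.3 weighted by reads and -28.7 on the plus strand, and *Dnmt3b* KO minus WT -5.53 on the plus and -6.12 on the minus strand. Between *Dlk1* and *Meg3*, *Dnmt3b* KO minus WT was -3.51 on the plus strand. The IG-DMR stretch gave -19.2 weighted by reads and -18.0 on the plus strand for *Dnmt3a* KO, and 1.59 weighted by reads for *Dnmt3b* KO. The 11 CpG-dense windows between *Dlk1* and *Meg3*, with 287 CpGs, gave -27.4 for *Dnmt3a* KO, but most of them lie outside the IG-DMR stretch. The *Meg3*-DMR stretch gave -11.9 on the minus strand and -22.0 with 3 kb on both sides for *Dnmt3a* KO, and -8.42 on the plus and 5.71 on the minus strand for *Dnmt3b* KO. By Fisher's exact test with Benjamini-Hochberg adjustment at 0.05 and a difference beyond 0.2, 4934 CpGs were called lower and 26 higher in *Dnmt3a* KO. In *Dnmt3b* KO these counts were 352 and 21. By a plain difference beyond 0.2 at CpGs with at least 10 reads, they were 5735 and 72, and 1366 and 318. In *Dnmt3a* KO the Fisher calls were 45.9% lower and 0.242% higher, against 48.6% and 0.0766% over the shared part, and the plain calls 62.0% and 0.779% against 67.1% and 0.378%. In *Dnmt3b* KO they were 3.26% and 0.194% against 3.83% and 0.211%, and 14.4% and 3.34% against 17.0% and 2.87%. Windows lower than WT numbered 411 and 5 at 30 points (48.8% and 0.593%, against 59.8% and 1.5% over the shared part), 425 and 13 with at least 10 covered CpGs (81.6% and 2.5%, against 84.8% and 4.31%), and 192 in *Dnmt3b* KO at 10 points (22.8% against 31.1%). Apart from the strands and the region limits, the cause of these changes was not tested. No paired analysis was possible because each table holds its 3 libraries merged, and leaving out a replicate was not run for the same reason. Depth limits single CpGs to large differences, and the sequence limits the promoter of *Rian* to 4 CpGs.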
